A study of Mus musculus with 4 samples.

Results

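Leukocytes were described in single-cell transcriptomes of mouse tumours that the labels call MB. Cells were chosen by UMIs (unique molecular identifiers, each standing for 1 captured transcript molecule) of 4 genes that white blood cells share, Tyrobp, Fcer1g, Laptm5 and Ptprc. Of 31150 cells with at least 500 UMIs, at least 300 genes and at most 20% mitochondrial UMIs, 97 held 2 or more UMIs summed over these genes, which was 0.311%. The tumours carried fSMO-M2, a conditional allele of a constitutively active Smoothened, and hGFAPcre, a Cre recombinase under the human GFAP promoter. All 4 groups shared these alleles. The libraries called SG had no further allele, and the libraries called YSG also carried floxed Yap1 (fYap1), the gene of a coactivator that Hippo signalling holds back. The labels describe YSG animals as rescued and taken at end point. There was 1 library for each genotype and sex, and sets of 4 values stand in the order SG male, YSG male, SG female, YSG female. How many animals each library pooled, their ages and the zygosity of the alleles are unstated in the sources used here. The human GFAP promoter is known to drive Cre in neural progenitors of the brain, and whether Cre acted in the leukocytes was not measured. The title of the series asks about sex differences in what Yap1 does in immune evasion.

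Microglia are the resident macrophages of the brain. They settle there early in development and persist by local division, and they depend on the receptor encoded by Csf1r. Monocytes, dendritic cells, neutrophils and T cells enter from blood or from the border tissues of the brain. In medulloblastomas driven by Sonic hedgehog signalling, microglia and macrophages are known as the main leukocytes, and lymphocytes as scarce. Tyrobp and Fcer1g encode adaptors that carry signals from activating receptors of myeloid and natural killer cells. Ptprc encodes CD45, the phosphatase on the surface of nearly all white blood cells, and Laptm5 a lysosomal membrane protein of haematopoietic cells.

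With 1 library per group there was no replicate, no difference was tested, and the 95% intervals in parentheses cover counting error only. A lower share of cells of a type in a library may come from the tumour, the dissociation or the capture, and these cannot be told apart. The matrices held 7289 to 8505 barcodes and 58478914 to 86906706 UMIs per library. Outside the leukocytes Yap1 had 266, 10, 373 and 3 UMIs in the 4 libraries, so it was low in both YSG libraries. In the leukocytes there was 1 Yap1 UMI in all, in an SG female cell. Xist, the transcript that silences an X chromosome, was found in 6 of 11 and 24 of 44 leukocytes of the SG and YSG female libraries and in 0 of 42 of the male libraries.

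The marker genes separated a small set of cells from the rest. Tyrobp (chr7:30413760-30417585 in the mm10 build) had 538 UMIs in 86 of the 97 leukocytes, Fcer1g 421 in 77, Laptm5 226 in 68 and Ptprc (chr1:138062861-138175708) 139 in 44. Since the rule used these genes, their levels are a description. Of the cells outside, 30926 held no UMI of the 4 genes and 127 held 1, and the median depth of those 127 was 10921 UMIs. Just inside the threshold, 8 cells held 2 UMIs and 9 held 3, while 75 held 5 or more. The median leukocyte held 8 marker UMIs and the highest 118. A further 8 barcodes met the marker rule and failed the filters on depth, genes or mitochondrial RNA. The leukocytes were shallow, with a median of 2301 UMIs against 6506 in the other cells, and 30 of them held under 1000. No barcode of a leukocyte was shared between libraries.

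The promoters of genes that led the leukocytes were examined because PU.1, the factor encoded by Spi1, is the master regulator of myeloid cells and binds a purine-rich core. Of the 30 leading genes named below, 22 had a promoter in the RefSeq table of GRCm38.p6, and 14 of these 22 (63.6%) held the letters GAGGAA on either strand in the 250 bases before the start. The same held for 25.5% of the 20267 genes of the matrices with a promoter there. A gene counted when any of its starts had the letters, and of 32851 single promoter windows 23.3% had them. The 30 genes were ranked on the contrast that the rule made and include its 4 marker genes. These shares are therefore a description, and binding of PU.1 was not measured. The letters TTNNGCAA, a core that C/EBP factors bind and that does not overlap the first, were in 2 of 22 (9.09%) against 10.6%. The 150 bases next to the start are shown for 4 of the 14. C1qb and Trem2 stand for the cells with complement C1q, Clec4e for the neutrophil-like cells and Cd53 for leukocytes at large, and capitals mark GAGGAA or its reverse complement TTCCTC.
C1qb promoter: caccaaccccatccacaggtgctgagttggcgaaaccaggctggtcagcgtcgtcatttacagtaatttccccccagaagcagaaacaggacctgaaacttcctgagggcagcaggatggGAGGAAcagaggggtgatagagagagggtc
Trem2 promoter: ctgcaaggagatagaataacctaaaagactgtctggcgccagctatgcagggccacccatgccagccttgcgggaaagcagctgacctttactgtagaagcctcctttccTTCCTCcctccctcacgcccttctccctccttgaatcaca
Clec4e promoter: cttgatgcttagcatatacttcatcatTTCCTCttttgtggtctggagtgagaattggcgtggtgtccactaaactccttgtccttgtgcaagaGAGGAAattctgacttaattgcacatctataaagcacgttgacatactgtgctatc
Cd53 promoter: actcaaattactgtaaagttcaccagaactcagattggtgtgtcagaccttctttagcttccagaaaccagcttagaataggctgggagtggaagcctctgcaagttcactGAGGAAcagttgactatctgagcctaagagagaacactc
These are chr4:136886201-136886350 on the minus strand, chr17:48346251-48346400 on the plus strand, chr6:123289872-123290021 on the minus strand and chr3:106790150-106790299 on the minus strand. The Clec4e stretch holds the letters at 2 places, and the others at 1. Lyz2, Mpeg1 and Cx3cr1 have no such letters in their 250 bases, which says nothing about the factor. Spi1 itself had 90 UMIs in 36 leukocytes and a UMI in 0.0225% of the other cells.

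The 30 genes with the highest ratio to the other cells included chemokine, complement and lysosomal genes of myeloid cells. Among 2724 genes with a UMI in at least 20% of leukocytes, 326 (12%) were at least 2-fold higher than in the other cells and 41 (1.51%) at least 2-fold lower, by summed UMIs scaled to a common total (CPM) with 1 CPM added. The rule chose cells along this contrast, so nothing is read from those counts. Ccl4 (chr11:83662584-83664683), a chemokine that draws in leukocytes, had the highest ratio, with 980 UMIs that lay in 20 cells. Lyz2, the lysozyme of macrophages, had 855 UMIs in 54 cells. The 3 chains of complement C1q lie side by side at chr4:136880129-136898803 on the minus strand. C1qa had 671 UMIs in 48 cells, C1qb 549 in 47 and C1qc 393 in 47. Ctss, a lysosomal protease that trims the invariant chain of MHC class II, had 487 UMIs in 54 cells. Srgn, the proteoglycan of secretory granules, had 316 in 52, Mpeg1, a pore-forming protein of macrophages, 219 in 53, and Cd52, a small surface glycoprotein, 212 in 57. Trem2, the lipid receptor that signals through Tyrobp, had 184 UMIs in 43 cells. Apoe, the lipid carrier, had the most UMIs of the genes listed, 6203 in 59 leukocytes, and a UMI in 24.0% of the other cells too, so it marks the leukocytes less sharply.

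The 97 cells fell into 7 clusters, named from marker lists and described in the order of their lineage. Because the clustering used these genes, their values describe the clusters and test nothing. The resolution of the clustering was set after the cells were seen, and at a lower one clusters 3 and 5 merged while the others held the same cells. Over all leukocytes, 61 (62.9%) held 2 or more UMIs of 14 microglia genes, against 1.75% of the other cells. The same count for 21 neutrophil genes was 26 (26.8%) against 0.184%, and for 18 T cell genes 17 (17.5%) against 3.21%. For 21 dendritic cell genes it was 44 (45.4%) against 54.1%, so this share was below that of the other cells and is not read as a share of dendritic cells. Fscn1 and Cacnb3 on that list each had a UMI in over 10% of the other cells. All 14 cells of cluster 4 were among the 44, and the list summed to 6821 CPM there, against 299 CPM in the other cells. For the same reason the share of 23 leukocytes with B cell genes, Ebf1 among them, stood below the 62.0% of the other cells.

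**Figure D1:**
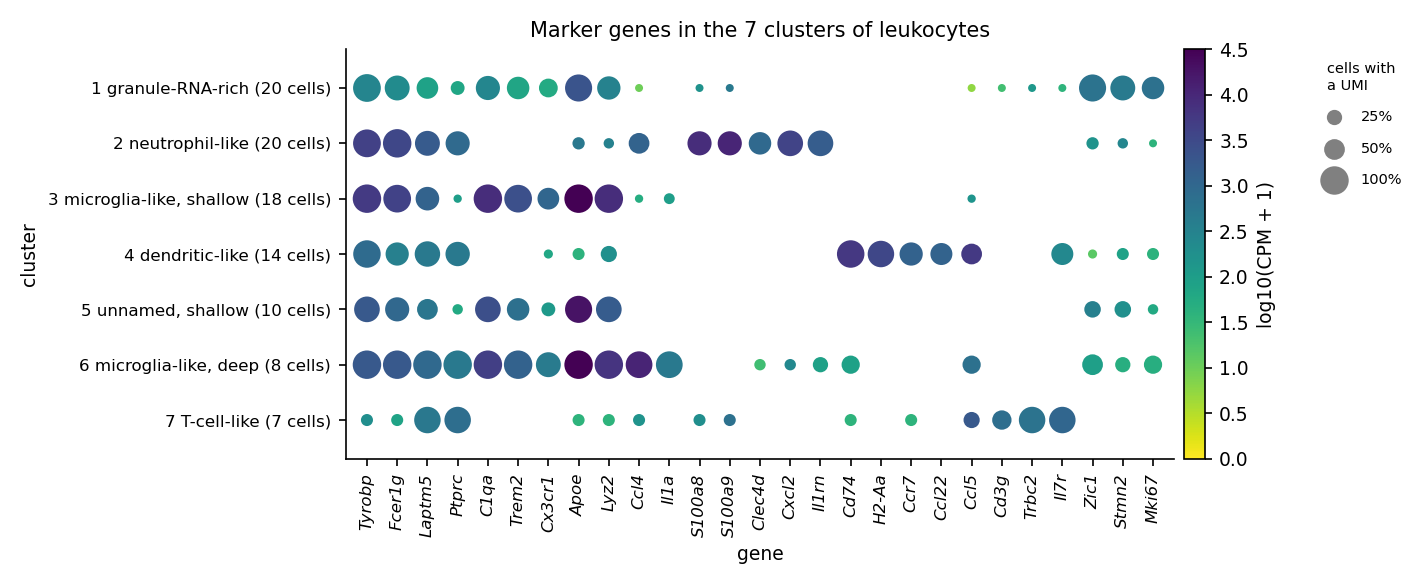
Marker genes (x axis) in the 7 clusters (y axis, number of cells in brackets). The area of each circle shows the share of the cluster's cells with a UMI and the colour the log10 of CPM + 1 of its summed UMIs, and no circle means no UMI. C1qa and Trem2 share clusters 1, 3, 5 and 6, S100a8 and S100a9 are high in cluster 2, Cd74 and Ccr7 in cluster 4, Cd3g and Trbc2 in cluster 7.

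Clusters 3 and 6 were microglia-like. Cluster 3 held 18 shallow cells with a median of 871 UMIs, of which 4, 5, 4 and 5 came from the 4 libraries. Cluster 6 held 8 deep cells with a median of 9782 UMIs, 0, 1, 3 and 4 by library. C1qa was present in 18 of 18 and 8 of 8 of these cells, with 168 and 398 UMIs. Trem2 was present in 17 of 18 and 8 of 8. Of the genes that mark resting microglia most strictly, P2ry12, the receptor for nucleotides, had 20 UMIs in 14 leukocytes and Tmem119, a surface protein of microglia, 8 UMIs in 3 cells, all in cluster 6. Cx3cr1, the fractalkine receptor, had 80 UMIs in 27 leukocytes. Lyve1 and Cd163, which mark macrophages of the brain's borders, had 0 UMIs. The other 15 of the 17 macrophage genes had UMIs, Mrc1, Pf4, Cbr2 and F13a1 among them. Of 13 monocyte genes, Chil3 and Ace had 0 UMIs. The other 11, Ly6c2 and Ccr2 among them, had 1063 UMIs in all, 855 of them of Lyz2. The labels' tissue thus held cells with microglia and macrophage genes, which were not divided further at this depth.

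Chemokine transcripts were concentrated in the deep microglia-like cells. Of 980 Ccl4 UMIs, 942 lay in cluster 6, as did 281 of 338 of the neighbouring gene Ccl3 and 40 of 42 of Il1a, a cytokine gene of the interleukin-1 family. Ccl4 was uneven among these 8 cells. The YSG male cell held 25 Ccl4 UMIs, the 3 SG female cells 0 to 73 and the 4 YSG female cells 1 to 439. The groups overlapped. Ccl4 and Ccl3 are known to be induced when brain tissue is dissociated, and Atf3, an early stress gene, had 121 of its 166 leukocyte UMIs in the same cluster and a UMI in 35.6% of the other cells, and the part of dissociation in these values was not tested.

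Cluster 2 was neutrophil-like and came from the YSG libraries alone, with 4 cells from YSG males and 16 from YSG females. S100a8 and S100a9 (chr3:90668978-90670035 and chr3:90692632-90695721) encode calprotectin, the most abundant protein of the neutrophil cytosol. They had 217 and 284 UMIs there, each in 14 of 20 cells. Summed over both genes, the YSG male cells held 6 to 41 UMIs with a median of 17, and the YSG female cells 0 to 195 with a median of 8.5, so the ranges overlapped. Genes of stimulated neutrophils were present: Cxcl2, a chemokine for neutrophils, had 104 UMIs in 16 cells, Il1rn, the interleukin-1 receptor antagonist, 41 in 16, Il1b 66 in 13, Acod1, which makes itaconate, 46 in 15, and Clec4e, a receptor for microbial and damage-related lipids, 72 in 19. Csf3r, the receptor for the growth factor of neutrophils, had 27 UMIs in 11 cells, and Cebpb, a factor of emergency granulopoiesis, 64 in 19. Ncf1, a subunit of the oxidase, had 47 UMIs in 14 cells. Elane, Mpo, Prtn3, Ctsg and Ngp, the granule genes of precursors in marrow, had 0 UMIs, and so had Ly6g. No cell of the cluster held C1qa. These cells were shallow, with a median of 1060 UMIs, or 0.162 of the median of their own libraries, and the lowest held 646, so the minimum of 500 UMIs bears on how many were counted.

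Cluster 4 was dendritic-like and also came from the YSG libraries alone, with 9 cells from males and 5 from females. Among leukocytes, genes of MHC class II, which presents peptides to CD4 T cells, were found almost entirely here. Cd74, the invariant chain, had 447 of 455 UMIs in this cluster, H2-Aa 270 of 270, H2-Ab1 329 of 336 and H2-Eb1 259 of 261. Per cell, Cd74 ranged from 0 to 89 UMIs (median 12) in YSG males and from 1 to 125 (median 13) in YSG females, and the ranges overlapped. The cluster mixed several kinds of dendritic cell. Of the 14 cells, 8 held 5 or more UMIs of Ccr7, the receptor that guides mature dendritic cells to lymph nodes, and 4 held a UMI of Xcr1, which marks the cross-presenting type. There was 1 cell with both and 3 with neither, by minimums set after the cells were seen. Over the whole cluster there were UMIs of Ccl22 (91 in 8 cells), Ccl17 (32 in 6), Fscn1 (76 in 6) and Il12b (54 in 3). Cd274, which encodes the checkpoint ligand PD-L1, had 16 in 6. The 8 cells with Ccl22 were not the same as the 8 with Ccr7. A YSG female cell with 11 Ccr7 UMIs held 0 of Ccl22, and another with 1 of Ccr7 held 2. Ccl5, a chemokine for T cells, had 435 of its 544 UMIs in 7 cells of this cluster. Irf8, the factor that sets up the cross-presenting and plasmacytoid types, had 73 UMIs in 10 cells. A YSG male cell with 4432 UMIs held 23 Ccr9, 13 Irf8, 12 Siglech and 8 Ly6d UMIs, the genes of plasmacytoid dendritic cells.

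Cluster 7 was T-cell-like, with 7 cells, 1, 2, 1 and 3 by library. Trbc2, a constant gene of the T cell receptor, had 16 UMIs in 6 of these cells, Il7r, the receptor for a survival cytokine of lymphocytes, 28 in 6 and Cd3g 20 in 3. Csf2, the gene of GM-CSF, had 7 UMIs in 3 cells and 0 elsewhere. Ctla2a, a cysteine protease inhibitor, had 58 UMIs in 5. Of 13 genes on the list of natural killer and cytotoxic cells, 8 had 0 UMIs among all 97 leukocytes, Gzma, Gzmb, Prf1, Ncr1 and Klrb1c among them. The other 5 had 562 UMIs, 544 of them of Ccl5. The checkpoint gene Tigit had 0 UMIs. Of the 6 cells with UMIs of the T cell genes, 3 held none of Cd3e, Cd3g or Trac and at most 2 of Trbc2, so T cell receptor RNA was seen clearly in the other 3 alone. The SG female cell of the cluster goes against its name: it held no UMI of the T cell genes, 35 of the neutrophil genes and 21 of the endothelial genes, 14 of them Cldn5. Rare types appeared as lone cells. A YSG male cell with 933 UMIs held 13 UMIs of mast cell genes, among them 4 of Cma1 and 3 each of Cpa3 and Mcpt4. Of 10 genes of B and plasma cells, 4 had 0 UMIs, Ms4a1, Igkc and Jchain among them, and 6 had UMIs. The haemoglobin genes had 0 UMIs.

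Clusters 1 and 5 were left unnamed. Cluster 1 held 20 cells (6, 5, 1 and 8 by library) led by Tpx2, Aspm and Mki67, genes of dividing cells. All 14 genes on the list of the granule lineage, the cells the tumour grows from, had UMIs among the leukocytes, and 737 of the 857 such UMIs lay in this cluster. In cluster 1 the granule UMIs per cell were 0 to 44 (median 22) in SG males, 12 to 132 (median 38) in YSG males, 57 in the SG female cell and 1 to 78 (median 42.5) in YSG females. Of all EYFP UMIs in leukocytes, 8 of 9 were here, and EYFP, an added sequence in the reference, had a UMI in 5.15% of leukocytes and 25.5% of the other cells. C1qa was present in 14 of the 20 cells with 61 UMIs. These cells were deep, with a median of 8598.5 UMIs, and 3 of them lay above a doublet mark drawn at the top 6% of scores. They held 78.8% of all leukocyte UMIs in SG males, 49.6% in YSG males, 31.1% in SG females and 40.2% in YSG females. Whether each was 1 cell or 2 captured together was not tested, and the genotype comparison below gives, for the genes it names, what changes without them. A YSG male cell of this cluster held 36 S100a8 and 107 S100a9 UMIs beside 38 granule UMIs, and an SG male cell 28 Trbc2 UMIs beside 38. Cluster 5 held 10 cells with a median of 954 UMIs, of which 9 had Apoe and 8 C1qa.

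**Figure D2:**
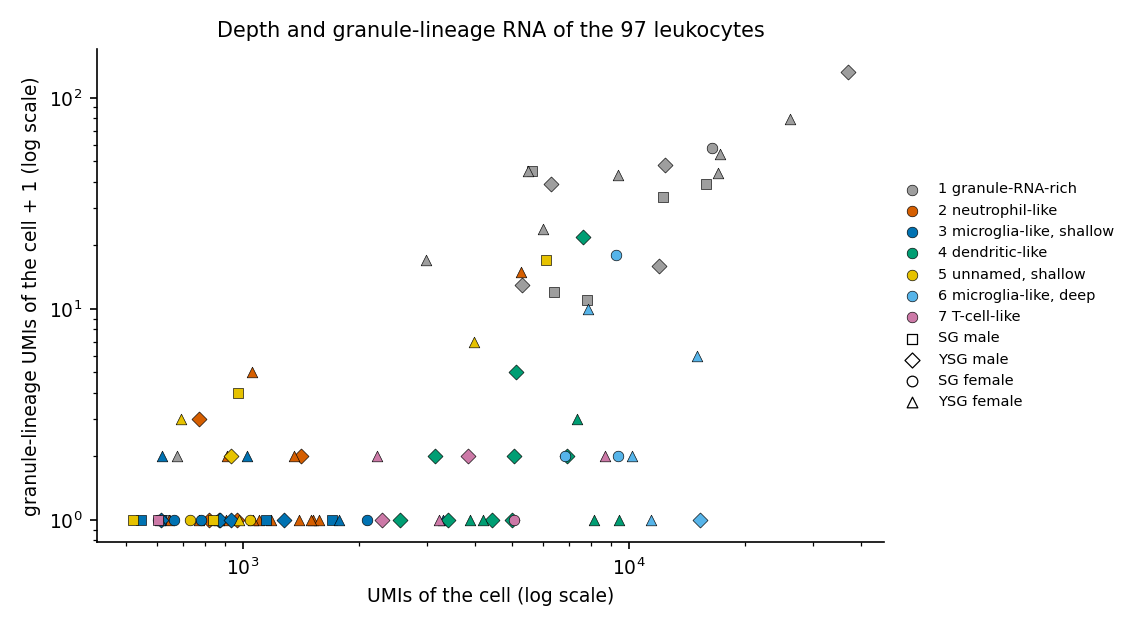
Each point is 1 of the 97 leukocytes, with its UMIs on the x axis and its UMIs of the 14 granule-lineage genes plus 1 on the y axis, both on log scales, with colours for clusters and shapes for libraries. Most of cluster 1 lies at the upper right, with a median of 38 granule UMIs, while clusters 2 and 3 lie at the left near 0, apart from 1 cell of cluster 2 with 14.

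The share of leukocytes was lowest in SG females and highest in YSG females. The SG male library held 15 of 8419 kept cells (0.178%, 0.0998 to 0.294%) and the YSG male library 27 of 7882 (0.343%, 0.226 to 0.498%). The SG female library held 11 of 7656 (0.144%, 0.0717 to 0.257%) and the YSG female library 44 of 7193 (0.612%, 0.445 to 0.820%). All these intervals are exact Clopper-Pearson intervals. In males the YSG share was 1.92-fold that of SG (0.987 to 3.89), an interval that includes 1. In females it was 4.26-fold (2.16 to 9.14). Female over male, it was 0.806-fold (0.335 to 1.88) in SG and 1.79-fold (1.08 to 3.0) in YSG. Median depths of leukocytes differed, at 1149, 3407, 2103 and 2002 UMIs, and the part of depth in these shares was not tested beyond the settings given at the end.

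**Figure D3:**
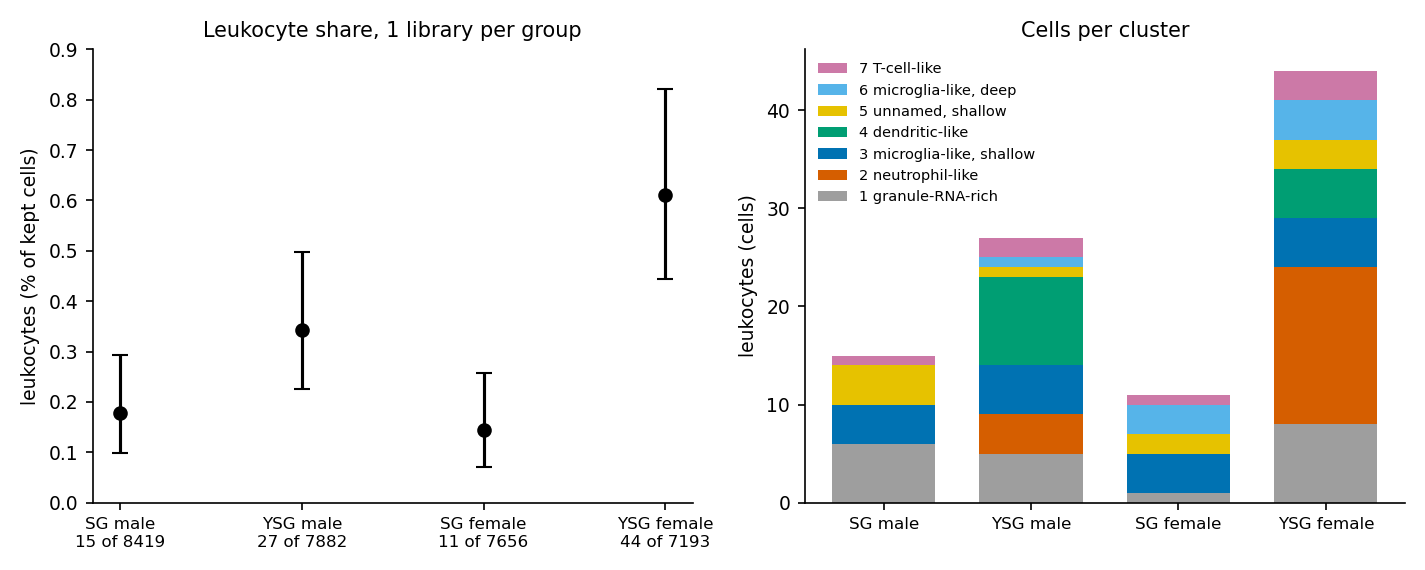
Left, leukocytes as a percent of kept cells (y axis) in each library, with exact 95% Clopper-Pearson intervals as bars. Right, the number of leukocytes in each cluster (y axis) by library. The YSG female point lies at 0.612% and the 2 SG points below 0.2%, and clusters 2 and 4 appear in the YSG bars alone.

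Neutrophil-like and dendritic-like cells were counted in the YSG libraries and in neither SG library. In cluster 2, the 16 YSG female cells were 0.222% of kept cells (0.127 to 0.361%) against 0 of 7656 in SG females, which allows a share of up to 0.0392%, so the share was at least 5.68-fold higher (lower limit with counting error 4.10). In males it was 4 cells against 0 of 8419, which is 1.42 times the share that 3 cells would give, and counting error on the 4 cells takes the fold below 1 (lower limit 0.705). Counted by S100a8 and S100a9 instead, with 2 or more UMIs, there were 0, 5, 1 and 12 leukocytes in the 4 libraries and none of the 31053 other cells. In cluster 4, the 9 YSG male cells were 0.114% (0.0522 to 0.217%), at least 3.20-fold higher than the 0 in SG males (lower limit 2.11). The 5 YSG female cells were 0.0695% (0.0226 to 0.162%) against 0, and counting error takes that fold below 1 (lower limit 0.975). Between the YSG libraries, cluster 2 was 4.38-fold (1.41 to 18.0) higher in females, and cluster 4 was 0.609-fold (0.160 to 2.02) of the male share, an interval that includes 1. With clusters 2 and 4 set aside, the YSG share of the remaining leukocytes was 0.997-fold that of SG among males (0.446 to 2.22) and 2.23-fold among females (1.04 to 5.06). The remaining leukocytes include cluster 1, the cells with much granule-lineage RNA. It held 5 YSG against 6 SG male cells (0.890-fold, 0.215 to 3.50) and 8 YSG against 1 SG female cell (8.51-fold, 1.14 to 378). The part of cluster 1 in the female value of 2.23 was not tested. For clusters 3, 5 and 6 together, which held most C1q cells, the YSG share was 0.935-fold that of SG in males (0.289 to 2.95). In females it was 1.42-fold (0.549 to 3.81), and both intervals include 1. The bounds for clusters 2 and 4 take 3 counts as the most a count of 0 allows.

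Genes of the leukocytes were then compared between genotypes by UMIs summed over the cells of each library, as log2 ratios of CPM + 1. Of 2152 genes with 20 or more UMIs in a library, 348 (16.2%) were at least 2-fold higher in YSG males than in SG males and 195 (9.06%) lower. In females 396 (18.4%) were higher and 130 (6.04%) lower. In both sexes 127 (5.9%) were higher and 11 (0.511%) lower. The summed leukocytes held 61727, 147250, 52982 and 211688 UMIs in the 4 libraries. A gene thus reached 20 UMIs more readily through a YSG library, and S100a8, H2-Eb1 and Ccl5 did so in YSG libraries alone. This filter favours genes that are higher in YSG. Counts of higher against lower genes, here, by list and in the cells with C1q, are therefore not read as a balance. The median log2 ratio over all 2152 genes stood at -0.03 for males and 0.20 for females. The male and female comparisons share no library. Without cluster 1, 131 of 990 genes were higher and 14 lower in both sexes, of which 94 and 3 were among the 127 and 11.

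Most antigen presentation genes that passed the filter had higher sums in YSG leukocytes of both sexes. MHC class I presents peptides to CD8 T cells. Of its 11 listed genes, 5 passed the filter of 20 UMIs. All 5 were higher in both sexes, with median log2 ratios of 1.59 for males and 1.90 for females. B2m, the shared light chain of class I, had 20, 108, 22 and 218 UMIs in 10, 21, 8 and 33 leukocytes. It was 2.26-fold higher in YSG males (1.40 to 3.85) and 2.48-fold in YSG females (1.6 to 4.04). H2-K1, a heavy chain (chr17:33996017-34000347), had 21 and 173 (3.45-fold, 2.19 to 5.72) and 19 and 283 (3.73-fold, 2.34 to 6.28). Without cluster 1, B2m was 1.41-fold in males (0.789 to 2.73), an interval that includes 1, and 3.01-fold in females (1.90 to 5.03), and H2-K1 was 5.81-fold (2.44 to 18.1) and 4.45-fold (2.77 to 7.62). B2m in males was also 1.59-fold (0.954 to 2.77) without the YSG cell that held 40 of its 108 UMIs. H2-K1, H2-D1 and H2-Q7 are close paralogs, and the sources used here do not say how reads that match several of them were counted. H2-Q7, with 0, 26, 1 and 34 UMIs, passed the filter through YSG libraries alone. Of the 5 measured genes of the class II list, 4 were higher in both sexes, all of them genes of cluster 4. These 4 also passed the filter through YSG libraries alone. H2-Ab1 had 1 and 179 UMIs in males (75.0-fold, 13.3 to 2980) and 1 and 155 in females (38.8-fold, 6.86 to 1542). H2-Eb1 had 0 and 170 UMIs in males and 0 and 91 in females, at least 23.8-fold and 7.59-fold higher. Cd74 had 0 and 232 in males, at least 32.4-fold higher, and 3 and 220 in females (18.4-fold, 6.20 to 89.7). In YSG females these genes were concentrated in 2 cells of cluster 4, which held 199 of the 220 Cd74 UMIs, 149 of the 155 H2-Ab1 UMIs and 87 of the 91 H2-Eb1 UMIs. Without the 2 highest cells, Cd74 in females was 1.89-fold (0.564 to 9.90) and H2-Ab1 1.62-fold (0.197 to 74.5), and both intervals include 1. In males Cd74 was still at least 13.7-fold higher and H2-Eb1 at least 5.93-fold without the 2 highest YSG cells. Without cluster 1, where SG males had fewer UMIs in all, the male bounds were 13.6-fold for Cd74, 9.98-fold for H2-Eb1 and 10.5-fold for H2-Ab1.

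Summed chemokine and neutrophil genes had the same direction, and much of each sum lay in few cells. Of 7 measured chemokine genes, 6 were higher in both sexes: Ccl3, Ccl4, Ccl5, Ccl17, Ccl22 and Cxcl16. Ccl4 had 0 and 31 UMIs in males, 25 of the 31 in 1 cell of cluster 6, and 79 and 870 in females. Of the 870, 812 lay in 2 YSG cells. Ccl4 in females was 2.76-fold (2.19 to 3.52) in all, and 0.210-fold (0.147 to 0.298) without those 2 cells. Ccl3 in females was 4.84-fold (2.89 to 8.76) in all, and 0.877-fold (0.481 to 1.69) without its 2 highest YSG cells. All SG cells stayed in for these values. In SG females 1 cell held 73 of the 79 Ccl4 UMIs and 13 of the 15 Ccl3 UMIs, so no direction is read from the values without the YSG cells. Ccl17 and Ccl22 had 0 UMIs in SG, and 19 of 21 and 37 of 41 of their YSG male UMIs, and 11 of 11 and 47 of 50 of their YSG female UMIs, lay in 2 cells. Ccl5 had 0 UMIs in both SG libraries, 200 in 5 cells of YSG males and 344 in 9 cells of YSG females, at least 27.9-fold and 28.7-fold higher, and at least 13.6-fold and 14.1-fold without the 2 highest YSG cells. Of 6 neutrophil genes measured, 5 were higher in both, with S100a8 at 0, 66, 5 and 187 UMIs and S100a9 at 0, 158, 18 and 233. Both S100a8 and S100a9 passed the filter through YSG libraries alone. All of the SG female S100a9 UMIs were in the cell of cluster 7 with endothelial genes, and 107 of the 158 in YSG males in the cell of cluster 1. Without cluster 1 the male bounds were 1.76-fold for S100a8 and 2.99-fold for S100a9. Among genes named by the size of the smaller ratio, Dock10, a guanine nucleotide exchange factor of lymphoid cells, had 0 and 23 UMIs in males and 0 and 37 in females. Samsn1, a signalling adaptor of haematopoietic cells, had 0 and 32 and then 1 and 70. Slfn2 had 13 and 44 UMIs in YSG males and females, Malt1, a protease of the NF-kB pathway, 12 and 39, Myo1g, a myosin of leukocyte membranes, 12 and 22, and Tnip1, an inhibitor of NF-kB signalling, 7 and 21, with 0 in both SG libraries. Against 0 SG UMIs, the call of 2-fold for these 4 genes in males rests on the 1 CPM added. Set against 3 SG counts, the male folds were 1.82 for Slfn2, 1.68 for Malt1, 1.68 for Myo1g and 0.978 for Tnip1. Without cluster 1 all 4 were under the level that 3 SG counts would give.

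Genes of microglia did not share that direction. None of 6 measured microglia genes was higher in both sexes, and their median log2 ratios were 0.51 for males and -1.48 for females. Cx3cr1 was lower in both, with 16 and 14 UMIs in males (0.367-fold, 0.166 to 0.802) and 23 and 27 in females (0.294-fold, 0.162 to 0.536). It was found in 9 of 15 and 4 of 27 leukocytes of males, and in 7 of 11 and 7 of 44 of females. Sparc, a matrix protein made by microglia and by other brain cells, was at 0.271-fold (0.115 to 0.614) and 0.274-fold (0.192 to 0.390), but in females this turned on which cells were summed. Its female log2 ratio was -1.87 in all and -0.50 in leukocytes with fewer than 2 neutrophil UMIs, and in the cells with C1q it was 0.957-fold (0.626 to 1.48). Without cluster 1, Sparc was 0.0587-fold in males (0.0102 to 0.235), from 3 and 9 UMIs, and Cx3cr1 0.194-fold for males (0.0747 to 0.509) and 0.288-fold for females (0.155 to 0.538). H2afj, Akirin1, Dot1l, Mt1 and Zfp638 were the other genes lower in both sexes that met the naming rule, with folds of 0.344 to 0.480. The intervals of Mt1 in males and Zfp638 in females include 1, and Dot1l turned to 4 UMIs in YSG males against 0 in SG males without cluster 1. These sums mix cell types. The cells with C1q outside cluster 1, described below, were 53.3%, 22.2%, 81.8% and 27.3% of the leukocytes in the 4 libraries. The part of this make-up in the summed ratios, and that of less RNA of a gene in each cell, was not tested. The granule list ran from 1434 CPM in SG females to 2511 CPM in SG males, and it was 1881 CPM in YSG males and 1649 CPM in YSG females, and its part in these ratios was not tested.

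**Figure D4:**
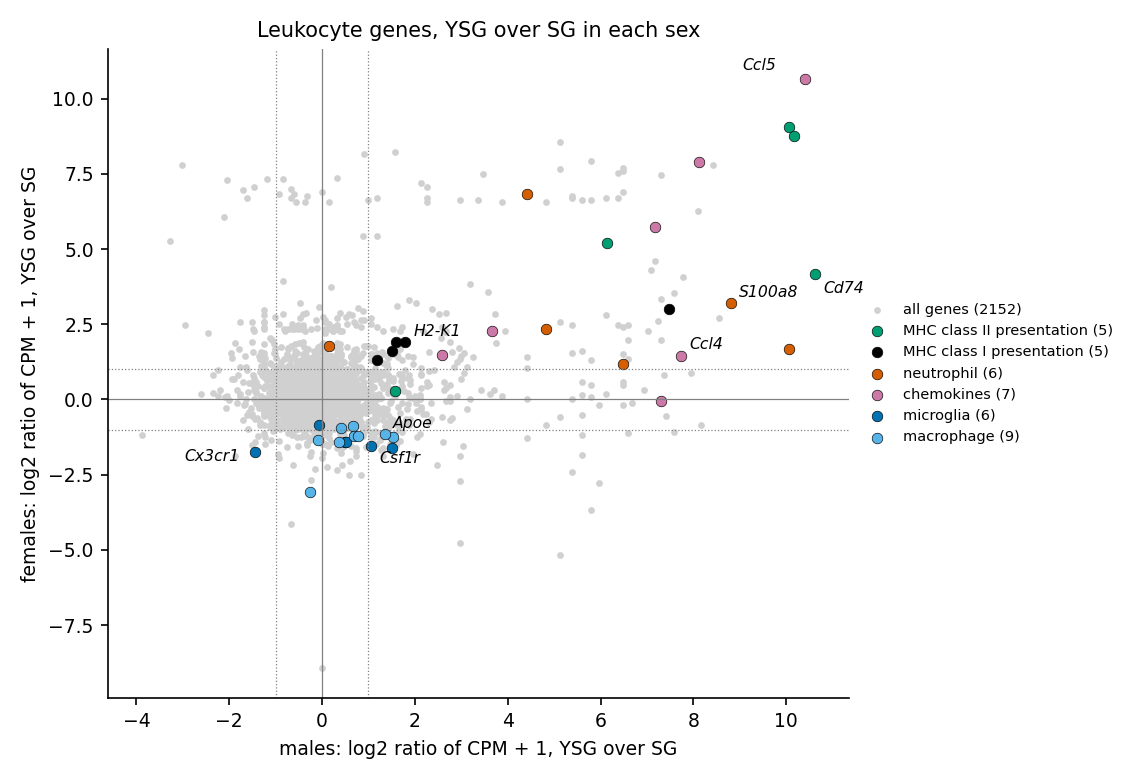
Each point is 1 of 2152 genes, with the log2 ratio of CPM + 1, YSG over SG leukocytes, in males (x axis) and females (y axis), coloured for 6 gene lists, with dotted lines at 2-fold. The MHC class II, neutrophil and chemokine genes lie mostly in the upper right, and the microglia genes below 0 in females. Ctss, on more than 1 list, is drawn with MHC class II.

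The cells with C1q allowed a narrower comparison, though they mixed 3 clusters in unequal parts. They were the 35 leukocytes outside cluster 1 with 3 or more UMIs of C1qa, C1qb and C1qc, a set chosen after the cells were seen: 8, 6, 9 and 12 by library. The SG male cells were 4 of cluster 3 and 4 of cluster 5, the YSG male cells 5 of cluster 3 and 1 of cluster 6, and the female libraries held all 3 clusters. The deepest cell held 49.0% of the UMIs of the SG male set and 77.0% of the YSG male set. Of 419 genes with 20 or more UMIs in a library, 118 (28.2%) were at least 2-fold higher and 107 (25.5%) lower in YSG males, 75 (17.9%) higher and 27 (6.44%) lower in YSG females, and 30 (7.16%) higher and 1 (0.239%) lower in both.

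Within the cells with C1q, class I genes had higher sums in YSG. These cells are part of the leukocytes compared above, so this is not a separate result. Per 10000 UMIs of a cell, B2m, H2-D1 and H2-K1 summed to 0 to 65.3 (median 14.8) in SG males, 57.5 to 150 (median 81.8) in YSG males, 0 to 38.4 (median 15.1) in SG females and 0 to 180 (median 53.3) in YSG females. The ranges of the genotypes overlapped in both sexes. The 4 SG male cells of cluster 5 held 0 to 11.9, and no YSG male cell with C1q was of that cluster. The part of this mix in the male values was not tested. From the summed counts the YSG level was 6.22 times that of SG for males (3.77 to 10.9) and 3.43 times for females (2.50 to 4.81). Without the deepest cell of each library these were 4.26 (2.29 to 8.44) and 3.56 (2.51 to 5.17). Without the YSG cell highest in this sum they were 6.89 (3.85 to 12.9) and 3.13 (2.25 to 4.42). Within cluster 3 alone, the ranges were 17.6 to 65.3 in 4 SG male cells and 57.5 to 150 in 5 YSG male cells, and 0 to 38.4 in 4 SG female and 0 to 180 in 5 YSG female cells. H2-D1 had 1, 48, 10 and 91 UMIs in the 4 libraries, H2-K1 4, 59, 17 and 99, and B2m 12, 62, 18 and 92. In the cells other than leukocytes the same sum was 0.751 to 0.839 per 10000 UMIs in the 4 libraries.

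Summed lysosomal genes were higher in the YSG cells with C1q, and in females 1 YSG cell held much of the sums. Cx3cr1 was found in a smaller part of the YSG cells than of the SG cells. Lyz2 was 3.46 times the SG level for males (2.37 to 5.22) and 2.71 times for females (2.16 to 3.42), and 2.27 (1.41 to 3.70) and 4.80 (3.55 to 6.64) without the deepest cells. Psap, the precursor of the activators of lysosomal lipid breakdown, was 9.14-fold (3.74 to 29.0) and 3.03-fold (2.15 to 4.38), and 6.11 (2.26 to 20.6) and 5.15 (3.24 to 8.61) without them. Another YSG female cell, of cluster 6 with 10196 UMIs, held 311 of the 455 Lyz2 UMIs and 150 of the 216 Psap UMIs. Without it Lyz2 was 1.04-fold in females (0.796 to 1.37) and Psap 1.13-fold (0.746 to 1.72), and both intervals include 1. The SG female set was left whole for these 2 values. Without its own deepest cell that set kept 47 of its 92 Lyz2 UMIs and 20 of its 39 Psap UMIs, so leaving out a YSG cell alone favours a fold near 1. In males, without the highest YSG cell, Lyz2 was 4.17-fold (2.62 to 6.73) and Psap 12-fold (4.43 to 40.5). Ctss was 4.63-fold (2.38 to 10.1) and 2.45-fold (1.85 to 3.29). Its female value was 1.52 (1.11 to 2.08) without the YSG female cell of 10196 UMIs, which held 134 of the 273 UMIs. The same cell held 47 of the 52 Gpnmb UMIs in YSG females. Gpnmb and Lgals3, genes of lipid-laden phagocytes, had 0, 7, 0 and 52 and 1, 10, 6 and 39 UMIs, and Wfdc17, an inhibitor gene of myeloid cells, 0, 20, 2 and 33. Without the deepest cells, Gpnmb had 1 UMI and Lgals3 2 in YSG males. Cx3cr1 had a UMI in 5 of 8, 2 of 6, 7 of 9 and 4 of 12 cells, with folds of 0.689 for males (0.266 to 1.81), an interval that includes 1, and 0.428 for females (0.218 to 0.829). Without the deepest cells the male value was 0.309 (0.0324 to 1.49), from 2 and 9 UMIs. The C1q genes were 2.23 times the SG level for males (1.84 to 2.73) and 0.979 times for females (0.851 to 1.13), and the male value was 1.5 (1.15 to 1.94) without the deepest cells. Apoe turned with the deepest cell: it was 0.876-fold (0.815 to 0.942) in females with it and 1.86-fold (1.69 to 2.06) without, and in males 4.55-fold (4.04 to 5.14) and 1.65-fold (1.40 to 1.95).

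**Figure D5:**
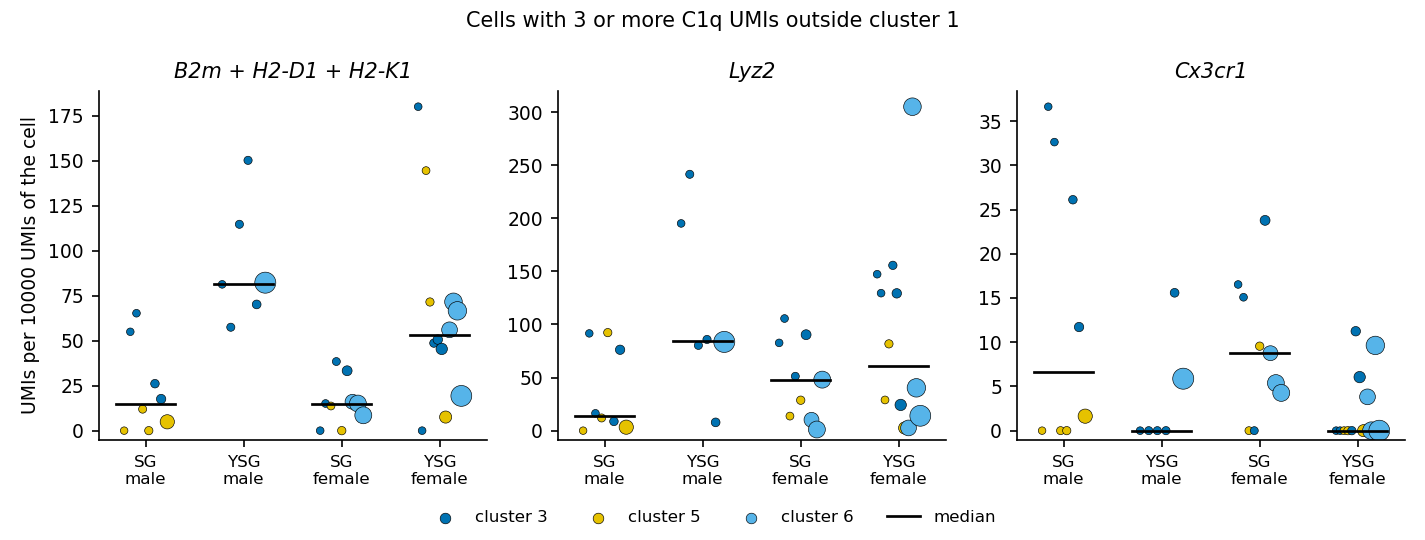
Each point is 1 of the 35 cells with 3 or more C1q UMIs outside cluster 1, by library (x axis), with its UMIs of the summed class I genes, Lyz2 or Cx3cr1 per 10000 UMIs of the cell (y axis). Colours are clusters, a larger point is a deeper cell and the line is the median. The class I medians are 14.8 and 81.8 in SG and YSG males and 15.1 and 53.3 in SG and YSG females.

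Inflammatory cytokine genes were found in 42 of the 97 leukocytes at 2 or more UMIs of the list, with all 20 cells of cluster 2 among them, and checkpoint genes in 53. In the other cells these shares were 14.6% and 13.7%. Il6, Il10 and Il27 had 0 UMIs, and so had Cxcl9, Nos2, Ptgs2, Ido1 and Retnla, genes of activated or alternatively activated macrophages. Tnf, a cytokine of inflammation, had 0, 1, 3 and 31 UMIs by library, in 16 cells, and Il1b 0, 55, 2 and 53 in 20. Among checkpoint genes, Cd47, the signal that stops phagocytes, had 3, 42, 2 and 59 UMIs in 33 leukocytes, with 67 of these 106 in cluster 4. Cd274 had 0, 9, 1 and 16 UMIs in 14 leukocytes. Sirpa, the receptor for Cd47, had 3, 22, 20 and 29 in 27. Of these, Cd47 was at least 2-fold higher in both sexes and Sirpa was not.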

How the data were processed

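Tumour tissue of 4 libraries, 1 for each genotype and sex, was captured with the 10x Genomics 3' kit V3. The values deposited are counts: whole UMIs per gene and barcode over 32286 features, not normalized, made with Cell Ranger 5.0.1 per the file headers. The submitters' processing notes name mm10. Gene positions came from GENCODE M21.

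Barcodes under 500 UMIs, under 300 genes or above 20% mitochondrial UMIs were left out. The members, gene lists, clusters and alternatives were chosen with earlier results of these data known. Scrublet's own threshold marked 0 cells, so it had not worked and no doublet was removed in the main counts. Leukocytes were clustered on 1000 variable genes, 10 principal components and 8 neighbours with leidenalg 0.10.2 at resolution 1.0, in scanpy 1.11.5. A cluster was called X-like only from the marker lists, and cells at the edge of a type may be misplaced.

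No test was made, since each group was 1 library. Shares carry Clopper-Pearson intervals and folds exact conditional binomial intervals (95%, scipy 1.17.1), and a 0 is bounded at 3 counts per library. Such intervals treat UMIs as independent. The code was tested on simulated data. Genes were named by rule. From each list, the members found in the most leukocytes (up to 6) and those at 0 could be named. Next came the 30 genes with the highest ratio to other cells among those in 20% of leukocytes. Between genotypes, up to 10 genes were named in each direction, with 20 UMIs in a library, a UMI in 5 leukocytes of the higher genotype in each sex and 2-fold in both sexes. Other genes named lead a cluster or were chosen after their values were seen: those of the cells with C1q, and the lone cells. Alternatives changed the marker minimum, depth, mitochondrial and doublet filters, thinning, pseudocount and scaling. Python 3.11.15, numpy 2.4.6, scikit-learn 1.9.0, pandas 2.3.3 and matplotlib 3.10.9 were used. A few genes are not reported here.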

Additional observations from a re-analysis of the deposited data

Results flagged for a closer look

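Some genes had opposite directions in the 2 sexes when UMIs were summed over all leukocytes, with at least 2-fold in each. These differences were not tested, and each rests on 1 library per group. Apoe had a log2 ratio, YSG over SG, of 1.35 in males and -1.16 in females. Csf1r, the growth factor receptor of microglia, had 1.04 and -1.56, from 2 and 10 UMIs in SG and YSG males and 31 and 42 in SG and YSG females. Fcrls, an Fc-receptor-like gene of microglia, had 1.51 and -1.61. Ms4a7, a macrophage gene, had 1.54 and -1.25, and Sirpa 1.6 and -1.46. Deep microglia-like cells of cluster 6 numbered 0 and 1 in SG and YSG males and 3 and 4 in SG and YSG females, and their part in these ratios was not tested. The 1 YSG male cell of cluster 6 held 1929 of the 2419 YSG male Apoe UMIs, 59 of 68 of Fcrls, 24 of 28 of Ms4a7, 11 of 22 of Sirpa and 6 of 10 of Csf1r. Without it the male fold was 0.577 (0.505 to 0.661) for Apoe, 0.421 (0.151 to 1.15) for Fcrls, 0.468 (0.0871 to 2.51) for Ms4a7, 0.936 (0.134 to 10.3) for Csf1r and 1.72 (0.453 to 9.58) for Sirpa, so the opposite directions rest on that cell for all of these but Sirpa, whose interval includes 1. Trbc2 had -3.28 in males and 5.28 in females, from 29, 7, 0 and 8 UMIs, and 28 of the 29 in SG males were in 1 cell of cluster 1, so the male direction rests on that cell.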

How the results depend on the processing

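No paired analysis was possible because each group was 1 library. The leukocyte share, YSG over SG, was above 1 in both sexes under every setting tried. On the log2 scale it was 1.97 in males when cells were thinned to 1000 UMIs, from 11 and 3 leukocytes, and 0.83 in females with 1 or more marker UMIs. At that minimum the pooled shares were 32.6% for microglia genes, 58.9% for dendritic cell genes, 10.3% for T cell genes and 12.1% for neutrophil genes. The dendritic share was 61.2% at 1000 UMIs per cell, and the T cell share 10.3% at 3 or more list UMIs. Genes higher and lower in both sexes numbered 80 and 4 of 1569 among leukocytes with fewer than 2 neutrophil UMIs, 265 and 60 with each cell scaled to the same total, and 30 and 1 of 419 in the cells with C1q, a setting chosen after seeing the data, as was leaving out cluster 1. Cd74 in females was -0.45 in the cells with C1q, and Dot1l in males 5.78 without cluster 1. The causes were not tested, but the subsets hold fewer cells and genes. Of the other values, 60 shares and gene counts and 146 single-gene ratios were counted as the same, and 22 ratios moved without turning, Sparc in females among them. A share or ratio was counted as the same while inside the counting interval of its main value, however wide. Folds given as at least have no upper limit. The male leukocyte share, YSG over SG, was 1.92-fold (0.987 to 3.89) in the main setting. At 5 or more marker UMIs it was 3.20-fold and was counted as the same. Leaving out the cells with most UMIs of a gene, also chosen after seeing the data, is given beside the genes above where it ended or turned a difference. Apart from leaving out the deepest cell of each library, this took out YSG cells alone and left the highest SG cells in. The male neutrophil share gave no value at 1000 UMIs per cell or when thinned, with 0 against 3 or fewer cells. Depth limits all absences here: the median leukocyte held 2301 UMIs.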
